A study of Mus musculus with 14 samples.

Results

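Chemokine receptor and ligand transcripts were measured in Ocy454 cells for 6 genes, Ackr3, Cxcl12, Cxcr4, Ackr4, Ackr2 and Cxcl14, chosen by name as the atypical receptor Ackr3, its ligand, the classical receptor of that ligand and their relatives. All 6 were found among the 39179 genes of the differentiation table and among the 35886 genes to which the transcripts of the sorted libraries were summed. Ocy454 is a mouse line with osteocyte features. All cultures carried a temperature-sensitive large T antigen, active at 33 °C, where the line is expanded, and lost at 37 °C, where it differentiates. There were 14 polyA RNA-sequencing libraries from unmodified cells of this 1 line. In the differentiation experiment, cells were collected at day 1, day 7, day 10 and day 14 after the move to 37 °C, with 2 biologic replicates per day. In the sorting experiment, cells kept for 17 days at 37 °C were labeled with a CD61-PE antibody and DAPI, and the live cells in the top 10% (CD61high) and the bottom 10% (CD61low) of CD61 signal were collected, with 3 replicates per group. The 17 days are those of the labels, and the study's text gives a different number in 1 place. CD61 is integrin beta 3, the product of Itgb3.

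Chemokines are small secreted proteins that guide cell movement through receptors coupled to Gi proteins. CXCL12, made in bone marrow by stromal and osteoblast-lineage cells, signals through CXCR4 and holds haematopoietic stem cells and developing B cells in the marrow. Atypical chemokine receptors such as ACKR3 bind chemokines without the classical G protein response, recruit arrestins, and take up and degrade their ligands. ACKR3 binds CXCL12 and also adrenomedullin and opioid peptides, ACKR4 binds CCL19, CCL21 and CCL25, and ACKR2 binds inflammatory CC chemokines.

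Reads per differentiation library ranged from 27518605 to 34311238, and estimated counts per sorted library ranged from 18815602 to 19220064. Itgb3 checked the sort: in CPM (reads per gene scaled to the library total, here after TMM scaling between libraries), it was between 5.31 and 6.10 in the CD61low libraries and between 100.1 and 130.1 CPM in the CD61high libraries. Of 13 osteoblast and osteocyte markers, 11 were tested in each experiment. Of these, 8 were higher on day 14 than on day 1, where 7.51% of all genes tested were called higher, and 10 were higher in CD61high than in CD61low cells, where 4.84% were. The list includes Itgb3 itself, so its call in the sort follows from the design. The study also picked Itgb3 from genes that rose in these differentiation data, so neither count is free of that choice. The osteocyte marker Sost had no read on day 1 and a mean of 17.7 ± 0.500 CPM (SD, n = 2) on day 14, whereas Mepe and Fgf23, markers of mature osteocytes, were below the filter on low values in both experiments. Calls needed a log2 fold change (Log2FC) beyond 1 in either direction together with an adjusted p under 0.01. These are bulk libraries, in which fewer cells of a type and less RNA per cell cannot be told apart.

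Ackr3 (ENSMUSG00000044337, chr1:90131689-90144473 on the plus strand of GRCm39) was, per kilobase of exon, the member with the highest level on day 14. It lay at 3.66 and 2.85 CPM in the day 1 libraries, at 84.0 and 83.4 CPM on day 7, at 55.9 and 53.6 CPM on day 10 and at 265.0 and 278.0 CPM on day 14, from 91 to 9092 reads per library. The order of the days was therefore day 1, day 10, day 7 and day 14, and no 2 days overlapped. From day 1 to day 7 the mean rose 25.7-fold, to 83.7 ± 0.434 CPM from 3.26 ± 0.570 CPM (SD, n = 2). This is a Log2FC of 4.32 on the log2(CPM + 1) scale (SE 0.06, adjusted p = 4.0e-27 by limma). Between day 7 and day 10 its Log2FC was -0.60 (SE 0.06, adjusted p = 1.4e-08 by limma), short of the fold threshold. The second rise came between day 10 and day 14, with a Log2FC of 2.29 (SE 0.06, adjusted p = 5.0e-20 by limma) and a mean of 271 ± 9.20 CPM at the end. Nearly all of the gene's signal in the sorted libraries came from 1 transcript, Ackr3-201 (362 codons), which held 99.7% ± 0.153 of its estimated counts in CD61high and 99.7% ± 0.293 in CD61low cells (SD, n = 3).

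Cxcl12 (ENSMUSG00000061353, chr6:117144945-117158328 on the plus strand) followed another course. Its level was 276 and 288 CPM on day 1, 70.6 and 69.5 CPM on day 7, 80.0 and 73.9 CPM on day 10 and 69.1 and 72.6 CPM on day 14. Both day 1 libraries stood above all later ones, and the day 14 libraries did not overlap those of day 10 but enclosed the range of day 7. The mean dropped from 282 ± 8.55 CPM on day 1 to 70.0 ± 0.790 CPM on day 7 (SD, n = 2), a Log2FC of -1.99 (SE 0.05, adjusted p = 3.4e-23 by limma). After day 7 no step was called: the Log2FC was 0.13 from day 7 to day 10 (adjusted p = 0.014 by limma) and -0.12 from day 10 to day 14 (adjusted p = 0.027 by limma). The called fall in the ligand's RNA thus lay between day 1 and day 7, the same interval as the first of the 2 rises of Ackr3.

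**Figure D1:**
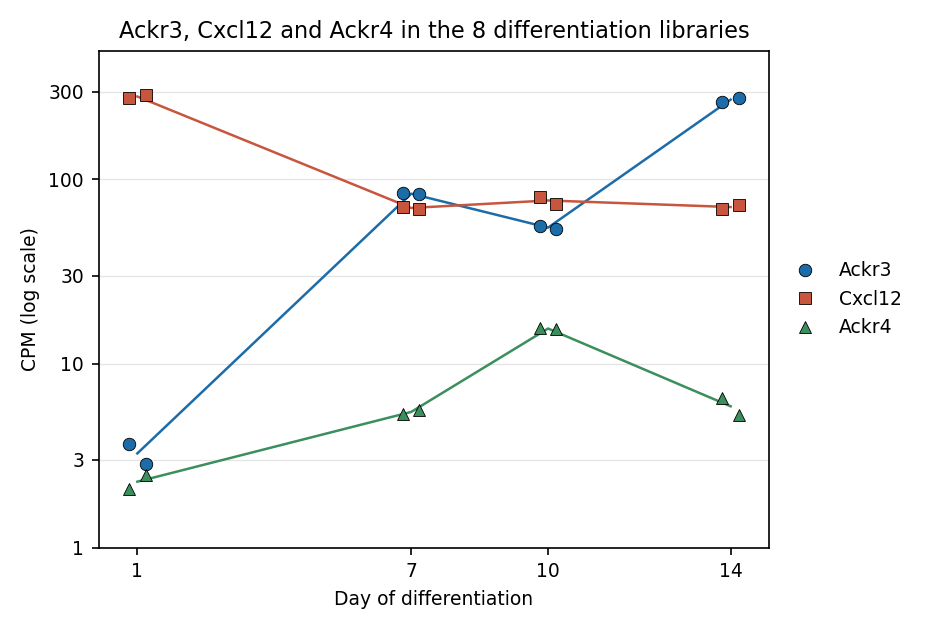
CPM on a log axis against the day of differentiation for Ackr3 (circles), Cxcl12 (squares) and Ackr4 (triangles). Each point is 1 library, the lines join the means of 2 replicates per day, and the points show Cxcl12 falling from day 1 to day 7, Ackr3 rising from 3.26 to 271 CPM by day 14 and Ackr4 highest on day 10.

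Because these genes moved in opposite directions from day 1 to day 14, the bases upstream of their starts are shown, taken from RefSeq promoter windows of build GRCm38.p6 (250 bases before to 50 after the start), which were found once each, unaltered, in GRCm39. Only the 250 bases before each start are printed, 5′ to 3′ on the gene's strand, with motif matches in capitals. They lie at chr1:90131452-90131701 for Ackr3 and at chr6:117145246-117145495 for Cxcl12 in GRCm39.
Ackr3: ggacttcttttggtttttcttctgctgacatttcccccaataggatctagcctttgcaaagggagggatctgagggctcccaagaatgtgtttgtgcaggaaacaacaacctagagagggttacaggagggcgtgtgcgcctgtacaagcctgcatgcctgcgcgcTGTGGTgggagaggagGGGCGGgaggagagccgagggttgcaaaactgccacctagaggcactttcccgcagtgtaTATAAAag
Cxcl12: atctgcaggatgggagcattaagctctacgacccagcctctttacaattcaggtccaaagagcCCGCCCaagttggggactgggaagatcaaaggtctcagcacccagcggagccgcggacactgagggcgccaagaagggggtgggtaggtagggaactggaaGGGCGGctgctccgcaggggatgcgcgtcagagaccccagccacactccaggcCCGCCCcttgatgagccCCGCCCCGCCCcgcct
Of the motifs searched on both strands over the full windows of 300 bases, Ackr3 held 1 TATAAA (8 bases before the start given by RefSeq), 1 GGGCGG (68 bases before it) and 1 TGTGGT (84 bases before it). The Cxcl12 window held 5 matches to GGGCGG, 4 of them on the minus strand where they read as CCGCCC and a pair of them overlapping, and no TATAAA or TGTGGT. Neither window held ACGTG. Among 32851 promoter windows of the same length, 13.6% held TATAAA, 35.7% GGGCGG, 16.8% TGTGGT and 19.6% ACGTG. GENCODE places the start of Ackr3-201, the transcript with nearly all of the gene's counts in the sorted libraries, at position 90131689, upstream of the TATAAA match. These matches describe letters only and were not tested for any role.

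Cxcr4, the Gi-coupled receptor of CXCL12, was barely detected. Its reads per library were 1 and 1 on day 1, 2 and 1 on day 7, 5 and 3 on day 10 and 11 and 1 on day 14, which is at most 0.321 CPM. In the sorted cells it had 4, 4 and 5 counts in the CD61low libraries and 1, 6 and 3 counts in the CD61high libraries, so the groups overlapped. Both day 10 libraries lay above those of day 1 and day 7 in CPM, and the day 14 libraries enclosed those of day 10. Cxcr4 was below the filter in both experiments and was not tested, so these few reads do not decide whether days or sorted groups differ.

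Ackr4 (ENSMUSG00000079355, chr9:103961356-104004132 on the minus strand), the atypical receptor of CCL19, CCL21 and CCL25, was highest on day 10. It lay at 2.10 and 2.48 CPM on day 1, 5.34 and 5.60 CPM on day 7, 15.5 and 15.5 CPM on day 10 and 6.47 and 5.27 CPM on day 14. Day 10 stood above all other days, day 1 lay below them, and the day 14 libraries enclosed those of day 7, so these 2 days do not differ beyond the spread of their replicates. The rise from day 7 to day 10 (Log2FC 1.35, SE 0.11, adjusted p = 1.5e-10 by limma) was followed by a fall from day 10 to day 14 (Log2FC -1.27, SE 0.11, adjusted p = 3.6e-10 by limma). From day 1 to day 7 its Log2FC was 0.98 (SE 0.11, adjusted p = 2.6e-08 by limma), just short of the fold threshold. Day 14 remained above day 1 by a Log2FC of 1.06 (adjusted p = 4.0e-09 by limma), a call that is lost without replicate 1 of day 1 (0.98) or of day 14 (0.93).

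Ackr4 shares 20.3% of its exon bases with Acad11, an acyl-CoA dehydrogenase gene on the opposite strand. Whether the authors counted reads by strand is not given in the sources used here, so reads from the shared bases cannot be assigned with certainty. Acad11 had 24.6 ± 0.713 CPM on day 10, and its Log2FC from day 7 to day 10 was 0.43. An endothelial marker, Vwf (von Willebrand factor), had its highest mean on the same day as Ackr4. The summed level of the 7 endothelial markers was 4.68 to 6.36 CPM on day 7, 124 to 132 CPM on day 10 and 17.95 to 19.3 CPM on day 14, nearly all of it Vwf. The 6 others were each below the filter, with means of at most 0.142 CPM on day 10 or day 14, and Emcn was at 0 in every library. Other marker lists were also higher on day 10 than on day 7 or day 14. The 6 adipocyte markers summed to 17.5 to 19.6 CPM on day 7, 28.7 to 30.6 CPM on day 10 and 17.5 to 19.3 CPM on day 14, nearly all of it Cebpa, a transcription factor, with Adipoq at no more than 0.0164 CPM on average on day 7 or day 10. The 10 haematopoietic markers summed to 3.90 to 4.40, 7.85 to 8.19 and 5.71 to 6.21 CPM on these days, most of it Cd68 and Fcer1g. Of the 2 tested, Cd68 was called higher from day 7 to day 10, and Adgre1 and Cd3e were at 0 on both days. The part of these markers or of Acad11 reads in the Ackr4 values was not tested.

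Ackr2, a scavenger of inflammatory CC chemokines, had no read in either day 1 library, where the limit that a count of 0 allows was 0.0456 CPM over both (3 reads; this limit covers counting error only). It had 2 and 6 reads on day 7, 5 and 4 on day 10 and 4 and 2 on day 14. In the sorted cells it had 0, 2 and 0 counts in the CD61low libraries and 8, 5 and 1 counts in the CD61high libraries. The 2 sorted groups overlapped, since 1 CD61high library was below the highest CD61low one. Cxcl14, a CXC chemokine, had 2 and 0 reads on day 1, 2 and 1 on day 7 and none on day 10, day 14 or in any sorted library, which allows up to 0.0488 CPM on day 10, 0.0485 CPM on day 14, 0.0478 CPM in CD61low and 0.0583 CPM in CD61high cells. Neither gene was tested.

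Counted over the 6 members, 3 passed the filter on low values in the differentiation experiment (Ackr3, Cxcl12 and Ackr4). From day 1 to day 7, 1 was called higher and 1 lower, where 4.49% of the 12725 genes tested were called higher and 4.62% lower. From day 7 to day 10, Ackr4 alone was called, higher (1.43% of all genes tested were called higher and 0.786% lower). From day 10 to day 14, Ackr3 was called higher (2.09% of all genes) and Ackr4 lower (0.872%). Between day 1 and day 14, 2 were called higher and 1 lower, beside 7.51% and 5.9% of all genes. The median Log2FC of the 3 members tested was 1.06 beside -0.03 over all genes tested. That median is the value of Ackr4 alone, with Ackr3 above it and Cxcl12 below 0, so it shows no shared shift.

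The CD61 sort separated Ackr3 as well. It lay at 61.5, 41.6 and 58.7 CPM, after TMM scaling, in the CD61low libraries and at 182, 152 and 157 CPM in the CD61high libraries. No CD61low library reached a CD61high one. The means were 53.9 ± 10.8 and 163 ± 15.8 CPM (SD, n = 3), 3.03-fold apart (Log2FC 1.60, SE 0.14, adjusted p = 7.7e-06 by edgeR's quasi-likelihood test).

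Ackr4 differed more in fold and from far fewer counts. Its values were 0.765, 1.17 and 1.71 CPM in the CD61low libraries, from 16, 25 and 35 counts, and 7.92, 8.003 and 8.47 CPM in the CD61high libraries, from 135, 139 and 144 counts. The groups did not overlap and the means were 6.69-fold apart (Log2FC 2.74, SE 0.24, adjusted p = 1.0e-05 by edgeR's quasi-likelihood test). Acad11, the gene on the other strand, had a Log2FC of 0.28 (adjusted p = 0.040 by edgeR) and was not called. Vwf was called higher in CD61high cells, at 80.3 ± 9.77 against 18.01 ± 3.14 CPM (SD, n = 3), and its part in the Ackr4 difference was not tested. The 6 other endothelial markers were each below 1 CPM in every sorted library and below the filter.

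Cxcl12 had a lower value in each CD61high library, by less than the fold threshold. Its values were 121, 122 and 111 CPM in the CD61low libraries and 77.8, 80.7 and 74.6 CPM in the CD61high libraries, so the groups did not overlap. The means were 118 ± 5.98 and 77.7 ± 3.07 CPM (SD, n = 3), with a Log2FC of -0.60 (SE 0.07, adjusted p = 7.2e-05 by edgeR's quasi-likelihood test), and of -0.90 with library size alone. Of the 3 members tested, 2 were called higher and none lower, where 4.84% of 12077 genes were called higher and 4.37% lower. Cxcr4, Ackr2 and Cxcl14 were below the filter.

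**Figure D2:**
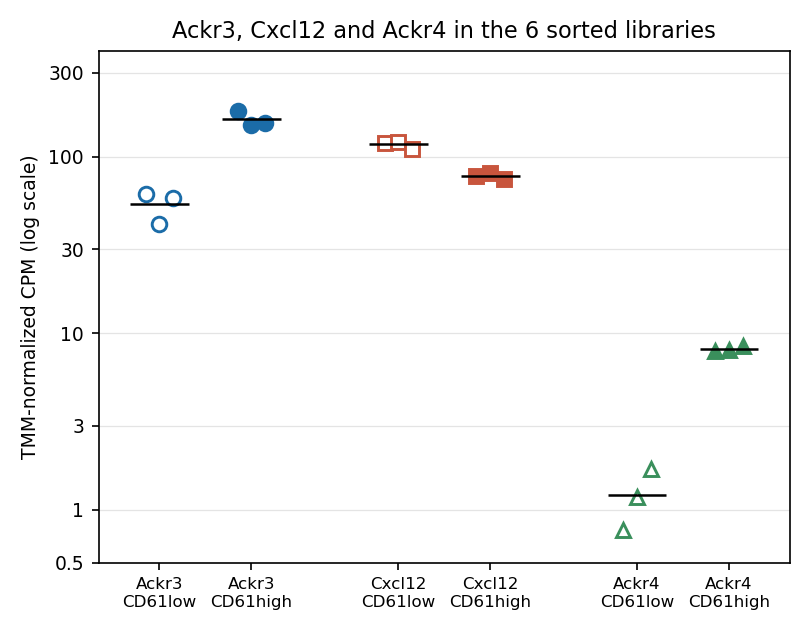
TMM-normalized CPM on a log axis for Ackr3, Cxcl12 and Ackr4 in the 3 CD61low (open) and 3 CD61high (filled) libraries, 1 point per library with a bar at the mean. Ackr3 and Ackr4 sit higher and Cxcl12 lower in every CD61high library than in every CD61low library.

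The RNA of the receptor and that of its ligand can be set against each other only per length. RNA levels do not give the protein at the cell surface. By flow cytometry, the paper reports that an antibody to CXCR7, its name for the Ackr3 product, labeled only a small share of differentiated Ocy454 cells. With CPM per kilobase of the union of each gene's exons (8105 bases for Ackr3 and 8346 for Cxcl12), the ratio of the Ackr3 level to the Cxcl12 level was 0.0137 and 0.0102 in the day 1 libraries, 1.23 and 1.24 on day 7, 0.720 and 0.748 on day 10 and 3.95 and 3.94 on day 14. By this length the ratio was below 1 on day 1 and day 10 and above 1 on day 7 and day 14. The direction on day 10 depends on the length used: with the gene lengths of the deposited table (3426 bases for Ackr3 and 8314 for Cxcl12), an alternative chosen after seeing the data, the ratio was 0.0322 and 0.0240 on day 1, 2.89 and 2.91 on day 7, 1.70 and 1.76 on day 10 and 9.31 and 9.29 on day 14. This multiplies every ratio by 1 constant, so the order of the days is fixed by construction. In the sorted cells the ratio of TPM (transcript abundance corrected for length and depth) was 0.493, 0.336 and 0.569 in the CD61low libraries and 2.57, 1.93 and 2.13 in the CD61high libraries. Every CD61low library was below 1 and every CD61high library above 1. The mean ratios, 0.466 ± 0.119 and 2.21 ± 0.327 (SD, n = 3), gave a two-sided exact permutation p of 0.1, the smallest that 3 against 3 libraries can give. The 2 experiments were prepared with different RNA kits and quantified with different tools, so ratios were compared only within each.

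**Figure D3:**
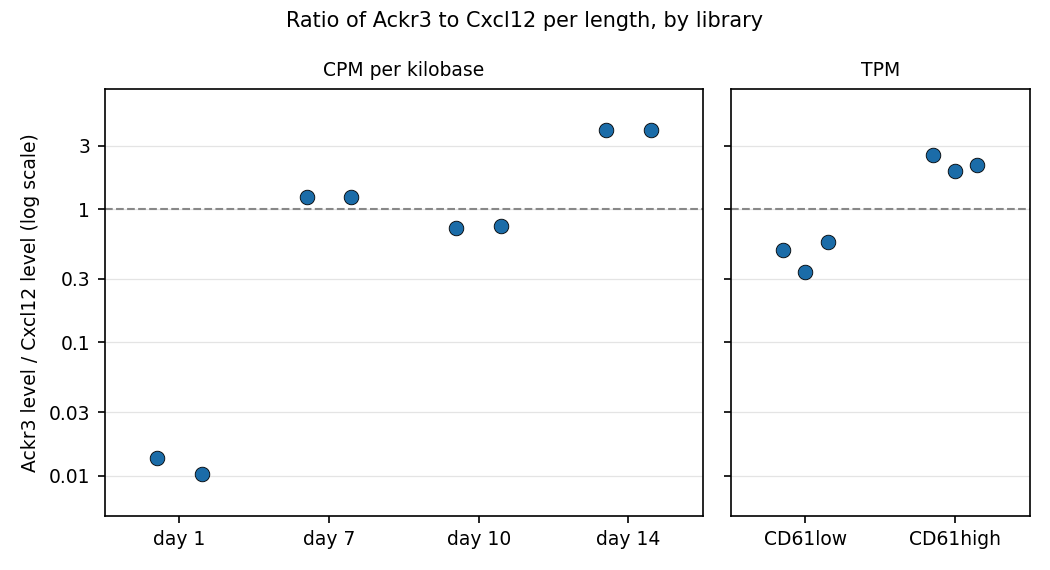
Ratio of the Ackr3 RNA level to the Cxcl12 RNA level on a log axis, 1 point per library, from CPM per kilobase in the differentiation experiment (left) and TPM in the sorted cells (right), with a dashed line where the levels are equal. The ratio lies near 0.01 on day 1 and near 4 on day 14 (3.95 and 3.94), and it crosses the line between CD61low and CD61high cells.

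Cxcl12 is spliced at its end into several coding forms, which differ in the residues after a shared part of 89 codons. The coding ends are shown because they are where the encoded proteins differ, while reads were assigned over whole transcripts; bases after the last shared ones are in capitals, the sequence is that of GRCm39 chromosome 6 along the GENCODE M39 coding exons, and the stop codon is left out.
Cxcl12-202: aaagctttaaacaag
Cxcl12-203: aaagctttaaacaagAGGCTCAAGATG
Cxcl12-201: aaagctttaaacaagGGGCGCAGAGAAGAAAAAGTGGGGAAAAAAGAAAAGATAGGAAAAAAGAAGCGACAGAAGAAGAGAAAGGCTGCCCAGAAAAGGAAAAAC
Cxcl12-202, of 89 codons, ends within the shared part. Cxcl12-203, of 93 codons, adds 4 codons from an exon whose coding part lies at chr6:117155544-117155556. Cxcl12-201, of 119 codons, adds 30 codons, many of them for lysine and arginine, from an exon whose coding part lies at chr6:117153047-117153137.

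By estimated counts, Cxcl12-203 held the most of the gene in both groups, 45.1% ± 2.90 in CD61low and 42.6% ± 3.20 in CD61high cells (SD, n = 3). Cxcl12-202 held 32.2% ± 5.14 and 30.3% ± 1.69. Cxcl12-201 held 16.2% ± 1.70 and 20.6% ± 4.96, with ranges of 14.5% to 17.9% and 16.8% to 26.2% that overlapped. The rest was Cxcl12-204, a transcript with a retained intron and no coding sequence. For these 4 shares the two-sided exact permutation p was 0.8 for Cxcl12-202, 0.6 for Cxcl12-203, 0.2 for Cxcl12-201 and 1 for Cxcl12-204, and each adjusted p over the 6 transcripts of Cxcl12 and Ackr3 was 1; 3 against 3 libraries cannot give less than 0.1. A p that misses the threshold does not show that the shares are alike. Shares from TPM, which correct for the lengths of the transcripts, put Cxcl12-202 first instead, at 50.1% in CD61low and 48.7% in CD61high cells.

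**Figure D4:**
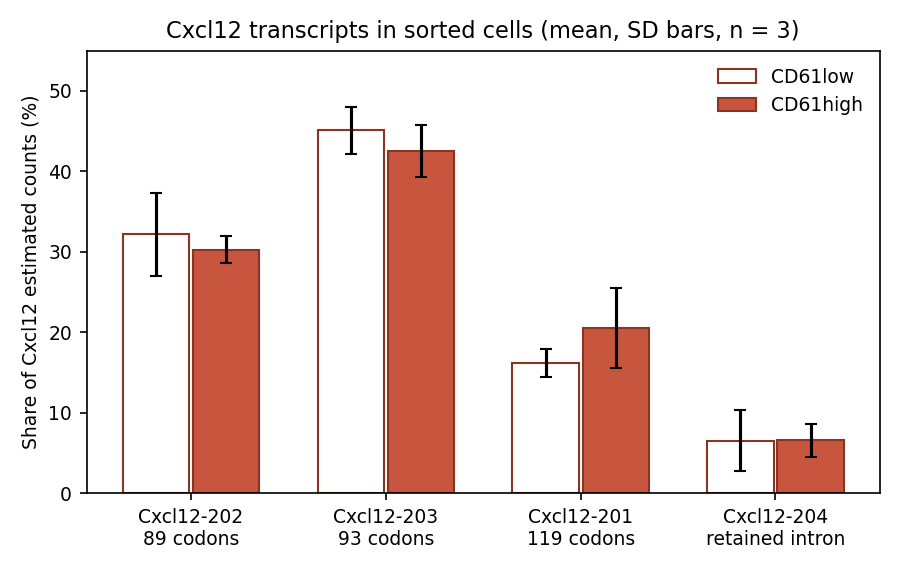
Share of the Cxcl12 estimated counts assigned to each of 4 transcripts in CD61low (open bars) and CD61high (filled bars) cells, as means with SD bars over 3 libraries. Cxcl12-203 is the highest in both groups by counts, and the ranges of each transcript overlap between the groups.

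The genes whose course over the 8 differentiation libraries was nearest to that of a member were found by the root mean square difference of centred log2(CPM + 1), over the 10313 genes that averaged 5 CPM or more. For Ackr3 the nearest were Selenbp1 (a selenium-binding protein gene, difference 0.20), Gpr35 (a G protein-coupled receptor gene, 0.22), Pygl (liver glycogen phosphorylase, 0.23), Phex (an endopeptidase of osteocytes that restrains FGF23, 0.27) and Ramp1 (a receptor activity-modifying protein, 0.36). All 5 were called higher in CD61high cells, from a Log2FC of 1.01 for Pygl to 2.17 for Phex, beside 4.84% of all genes tested. Pygl fell under the fold threshold with TMM after the filter and without CD61high replicate 1 or CD61low replicate 2, and both Pygl and Gpr35 did so with library size alone.

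For Cxcl12 the nearest included Fig4 (a phosphoinositide phosphatase, 0.07), Cacna1a (a calcium channel subunit, 0.08), Ccdc9b (0.08) and Amot (angiomotin, 0.12). Ccdc9b was called lower in CD61high cells (Log2FC -1.51), and Fig4 (-0.52), Cacna1a (-0.42) and Amot (-0.27) were not called. For Ackr4 the nearest included Wnt4 (a WNT ligand, 0.20), 5031425E22Rik (0.20), Lrrn4cl (0.21) and Rab27b (a RAB GTPase, 0.25). In the sort the Log2FC was -0.46 for Wnt4, 0.63 for Lrrn4cl and 0.76 for Rab27b, all short of the fold threshold.

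Among the other chemokine receptors little was expressed. Of 17 classical receptors, 1 was tested across the days, Ccr10, the receptor of CCL27 and CCL28, at 1.30 ± 0.245 CPM on day 1 and 2.48 ± 0.781 CPM on day 14 (SD, n = 2), with a Log2FC of 0.58 (adjusted p = 0.0014 by limma), short of the fold threshold and 0.35 without replicate 1 of day 14 (adjusted p = 0.070 by limma). The next in level was Cxcr5, a B cell receptor for CXCL13, at 0.611 and 0.680 CPM, below the filter. No classical receptor was tested in the sorted cells, where the 17 summed to at most 0.412 CPM in any library. Of the other atypical and scavenging receptors, Gpr182 was tested across the days (0.873 CPM on day 1 and 0.528 CPM on day 14, not called), Ccrl2 was below the filter, and Ackr1 was at 0 in the day 1, day 14 and sorted libraries.

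Chemokine ligands other than Cxcl12 were mostly low and, where called, lower, beside 5.9% of all genes tested called lower by day 14 and 4.37% in the sort. Of 13 other CXC ligands, 3 were tested from day 1 to day 14 and 1 was called, Cxcl10, an interferon-inducible chemokine, which fell from 19.3 ± 0.204 to 1.35 ± 0.110 CPM (SD, n = 2; Log2FC -3.11). In the sorted cells, both CXC ligands tested were lower in CD61high cells: Cxcl10 at 0.703 ± 0.614 against 9.73 ± 0.742 CPM (Log2FC -3.78, and -4.78 without CD61high replicate 3) and Cxcl1, which draws neutrophils, at 1.83 ± 0.375 against 16.4 ± 0.369 CPM (Log2FC -3.16). Of 22 CC and other ligands, 6 were tested across the days and 4 were called lower on day 14: Ccl5 (Log2FC -2.51), the membrane-bound chemokine Cx3cl1 (-1.67), and the monocyte chemokines Ccl7 (-1.23) and Ccl2 (-1.12). By edgeR on recovered reads the fall was larger for Ccl5 (-3.87) and Ccl7 (-2.999). Cx3cl1 was also called lower in CD61high cells, at 18.8 ± 2.03 against 64.0 ± 3.23 CPM (SD, n = 3; Log2FC -1.77), as 1 of 2 tested. Ccl2 was below the sort filter, with 0.523 ± 0.344 CPM in CD61high and 9.43 ± 1.04 CPM in CD61low cells. Of the ACKR4 ligands, Ccl19 and Ccl21a were at 0 in the day 1, day 14 and sorted libraries, and Ccl25 was at 4.32 ± 0.477 CPM in CD61high and 6.09 ± 0.887 CPM in CD61low cells, not called.

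Interferon-stimulated genes, the class to which Cxcl10 belongs, moved with these ligands in the sort. All 8 tested of 10 on the list were called lower in CD61high cells (4.37% of all genes tested were), with a summed level of 355 to 404 CPM in the CD61low and 70.3 to 73.7 CPM in the CD61high libraries. Across the days their course was not in 1 direction. Of 9 tested, 6 were called lower from day 1 to day 7 (4.62% of all genes), 5 higher from day 7 to day 10 (1.43%) and 1 lower from day 10 to day 14 (0.872%), and 3 were lower on day 14 than on day 1 (5.9%). Their summed level was 239 to 246 CPM on day 1, 126 to 128 CPM on day 7, 162 to 166 CPM on day 10, the day on which Ackr4 was highest, and 138 to 150 CPM on day 14. Their part in the Ackr4 values was not tested. Haematopoietic markers summed to 14.0 to 16.8 CPM in the CD61low and 8.88 to 9.97 CPM in the CD61high libraries, most of it Cd68, a lysosomal gene not limited to macrophages, with Adgre1 and Cd3e at 0 in the sorted libraries. Their part in the ligand differences was not tested.

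Of 9 genes for other ligands of ACKR3 or CXCR4 and for proteins that bind or cleave CXCL12 or these ligands, 5 were tested in each experiment. By day 14, 2 were called higher and 1 lower (7.51% and 5.9% of all genes tested), and in CD61high cells 1 was higher and 1 lower (4.84% and 4.37%). Adm, encoding adrenomedullin, rose from 0.0756 ± 0.018 to 3.83 ± 0.343 CPM (SD, n = 2; Log2FC 2.16 on the log2(CPM + 1) scale, 4.48 with a pseudocount of 0.1 and 5.61 by edgeR on recovered reads) and was higher in CD61high cells, at 8.13 ± 1.92 against 2.01 ± 0.760 CPM (SD, n = 3; Log2FC 2.01, adjusted p = 1.8e-04 by edgeR). Mif, a cytokine that binds CXCR4 and CD74, rose to 105 ± 7.10 from 23.9 ± 0.717 CPM by day 14 (Log2FC 2.09) and had a Log2FC of 0.58 in the sort, not called; Mif has near-identical pseudogene copies, so its counts are uncertain. Cd74, the invariant chain and MIF receptor, was lower on day 14 (Log2FC -1.28) and lower in CD61high cells, at 1.94 ± 0.664 against 34.1 ± 4.07 CPM (Log2FC -4.13). CALCRL pairs with RAMP proteins, with RAMP2 or RAMP3 as a receptor of adrenomedullin and with RAMP1 as the receptor of CGRP. A separate list of 4 genes for these receptors had 2 tested in each experiment. By day 14, 1 was called higher and 0 lower (7.51% and 5.9% of all genes tested). In CD61high cells 1 was also higher and 0 lower (4.84% and 4.37%). In both cases this was Ramp1, which rose from 6.94 ± 0.240 to 313 ± 25.9 CPM (Log2FC 5.30) and had a Log2FC of 1.61 in the sort. Ramp2 was not called in either comparison, and Calcrl was below the filter, with no count in any CD61high library.

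Of the receptor kinases, arrestins and Gi subunits that act on or after chemokine receptors, 10 of 12 were tested in each experiment. From day 1 to day 14, Arrb1, encoding beta-arrestin 1, rose from 26.6 ± 0.152 to 172 ± 2.71 CPM (SD, n = 2; Log2FC 2.64), the Gi-class subunit gene Gnaz rose (Log2FC 1.52, and 2.37 by edgeR on recovered reads), and the kinase gene Grk5 fell (Log2FC -1.24). These are 2 higher and 1 lower of 10, beside 7.51% and 5.9% of all genes tested. In the sort 0 of the 10 were called by edgeR or by DESeq2, beside 4.84% of all genes tested called higher and 4.37% lower by edgeR; 4 had an unadjusted p below 0.05 by edgeR and 4 by DESeq2, and scaling by library size alone called 1, Grk5, lower. The 2 with the highest levels were Gnai2, at 1186 ± 55.9 CPM in CD61high and 877 ± 60.6 CPM in CD61low cells, and Gnao1, at 138 ± 6.18 and 113 ± 6.85 CPM (SD, n = 3). Arrb1 lay at 62.8 ± 6.93 and 68.8 ± 7.97 CPM in these groups (Log2FC -0.13).

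**Figure D5:**
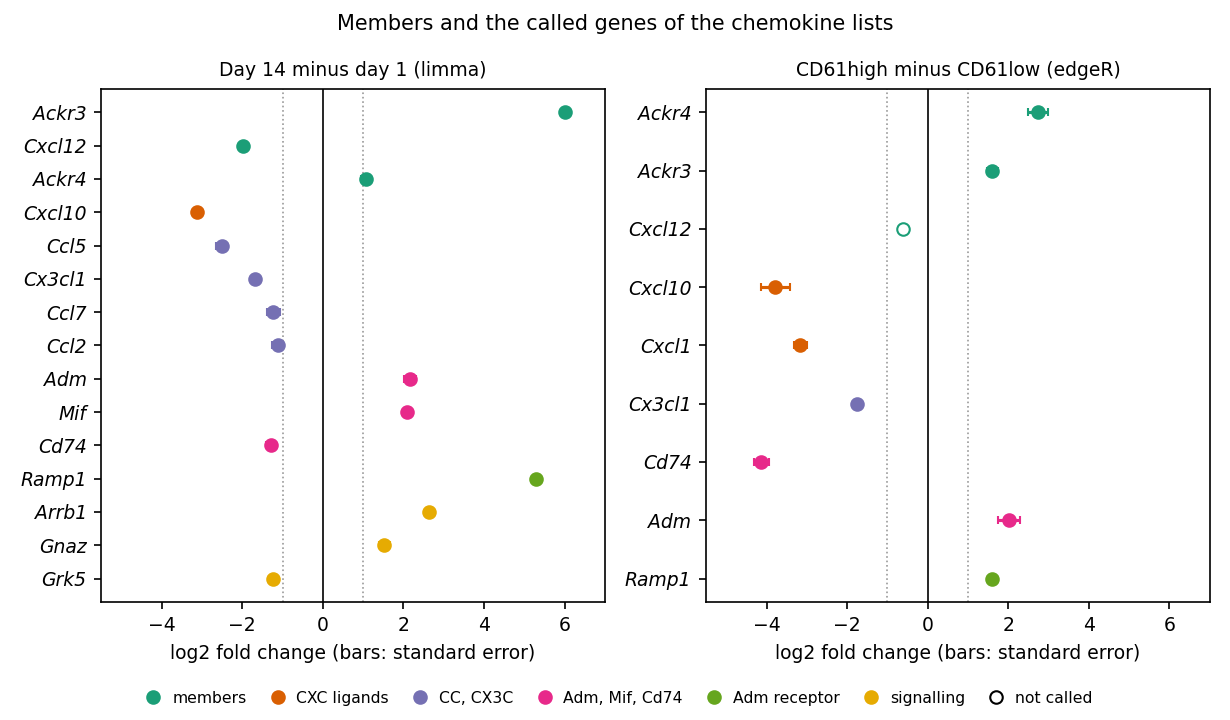
Log2FC with its SE for the 3 members tested and for the called genes of each chemokine list (at most 4 per list), on day 14 against day 1 (left, limma) and in CD61high against CD61low cells (right, edgeR). Dotted lines mark a Log2FC of -1 and 1, open points were not called, and the points to the right include Ackr3, Ackr4, Adm and Ramp1 in both panels while Cxcl10, Cx3cl1 and Cd74 lie to the left in both. The legend entry for the adrenomedullin receptor list covers Ramp1, although RAMP1 with CALCRL forms the receptor of CGRP.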

How the data were processed

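Per the labels and the study's methods, the authors aligned reads of the differentiation libraries with STAR, counted them with HTSeq and deposited CPM, scaled to the library total. The strand setting and tool versions are not given in the sources used here. For the sorted libraries the authors ran Salmon against the GRCm39 transcriptome and deposited estimated counts and TPM per transcript. Estimated counts were summed to genes with GENCODE M39 (115556 of 116747 transcripts matched) and rounded. A row that repeats the symbol Ackr4 under an identifier outside that annotation was left out.

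Differentiation values were tested as log2(CPM + 1) with limma 3.58.1 (trend) in R 4.3.3, in 1 fit over 8 libraries, for 12725 genes above 1 CPM in at least 1 library. Whole reads were recovered from the CPM steps (100% of values within 0.01 of a whole read). Sorted cells were tested with edgeR 4.0.16 (quasi-likelihood, TMM over all genes) for the 12077 genes whose normalized count reached 5 in each of the 6 libraries, with the SE derived from Log2FC and F. P-values were adjusted over all genes tested by Benjamini-Hochberg. Both pipelines were run on simulated counts in which every gene of an experiment had the same dispersion. That check required the recovery of large folds only, above the threshold for calls, so it does not cover genes near that threshold. The methods describe biologic duplicates per day and 3 separate groups of cells for the sort.

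The members and lists were chosen with earlier results of these data known. Named genes are the members, the 5 genes nearest to Ackr3, Cxcl12 and Ackr4, and up to 4 called genes per list in each of day 14 against day 1 and the sort (the 2 with the highest level where none was called). Among the genes nearest to Cxcl12 and Ackr4, 1 each is not reported here. Marker lists are given by counts and sums. Vwf and single members of the marker lists, Acad11, and uncalled list genes given with values were named after their values were seen. Coordinates come from GENCODE M39 (34199 of 39179 identifiers matched) and promoters from RefSeq. Tables were made with pandas 2.3.3 and figures with matplotlib 3.10.9. The alternatives are listed in the closing section.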

Additional observations from a re-analysis of the deposited data

How the results depend on the processing

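For the 3 members tested, 164 of 171 Log2FC values under the alternatives kept their direction and their call (fold and adjusted p together), and none reversed. The calls that changed were all Ackr4. From day 1 to day 7 its Log2FC of 0.98 passed the fold threshold with TMM scaling (1.02), with edgeR 4.0.16 on recovered reads (1.30) and with a pseudocount of 0.1 (1.23), and it ranged from 0.89 to 1.06 when 1 library was left out; from day 1 to day 14 it ranged from 0.93 to 1.19 in that case. The small Cxcl12 differences were never called and moved with single libraries and with the scaling. From day 7 to day 10 the Log2FC of 0.13 was 0.076 without day 10 replicate 1 and 0.19 without day 10 replicate 2. With TMM scaling it was 0.063 (adjusted p = 0.21 by limma). From day 10 to day 14 the Log2FC of -0.12 was -0.060 without day 10 replicate 1 and -0.17 without day 10 replicate 2. It was -0.081 without day 14 replicate 1 and -0.058 with TMM scaling (adjusted p = 0.25 by limma). Ackr3 in the sort ranged from 1.44 to 1.70 when 1 library was left out and was 1.59 with DESeq2 1.42.0 and 1.30 with library size alone. Across the days the size of its adjusted p by limma depended on the filter. From day 7 to day 10 it was 1.4e-08 in the main fit and 0.0010 with no filter. From day 10 to day 14 it was 5.0e-20 and 2.1e-06.

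Scaling the sorted libraries by library size alone shifted the median over all genes to a Log2FC of -0.29, gave 316 genes higher and 963 lower in place of 585 and 528, turned Gnao1 to -0.0145 and put Cxcl12 at -0.90. The edgeR test on recovered reads called 876 genes higher from day 1 to day 7, 334 higher and 216 lower from day 7 to day 10, 504 higher and 227 lower from day 10 to day 14, and 1339 higher and 953 lower from day 1 to day 14. With a pseudocount of 0.1 the calls were 377 higher and 175 lower from day 7 to day 10, then 425 higher and 246 lower from day 10 to day 14. The other filters, RLE factors, TMM after the filter and the fit on 4 libraries kept every count of calls within 1.5 times. Per kilobase of abundance-weighted transcript length, the mean ratio of Ackr3 to Cxcl12 was 1.08 at day 7, 0.646 at day 10 and 3.48 at day 14, and with the gene lengths of the deposited table, chosen after seeing the data, it was 0.0281 on day 1, 2.90 on day 7, 1.73 on day 10 and 9.30 on day 14, which turns the direction on day 10. By TPM, Ackr3-201 held 96.5% of its gene in CD61high and 96.7% in CD61low cells, Cxcl12-201 held 9.49% and 7.17%, Cxcl12-202 held 48.7% and 50.1%, and Cxcl12-203 held 35.2% and 36.3%. Where no construction of the alternative shows it, the cause was not tested.

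The replicate numbers were not taken to pair the samples, since the labels do not say that a number marks a shared culture. The methods describe 3 groups of cells from which both fractions were sorted, without tying them to the numbers, so a pairing in the sort is possible. Deviations of same-numbered libraries correlated at 0.006 to 0.087 across the days and at -0.32, 0.22 and -0.06 in the sort, where not every library correlated best with its own number. With the replicate block, 574 genes were higher and 509 lower in the sort and Ackr3 had a Log2FC of 1.61; no call of a member changed. Depth limits Cxcr4, Ackr2 and Cxcl14, which had 0 to 11 reads per library, and 2 replicates per day limit the error estimate.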
